A study of Mus musculus with 441 samples.

Results

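Cdkn1a, Rbl2, Lats2, Casp2, Ei24 and Rhoc are 6 genes reported as targets of the miR-290 family of microRNAs, and they were followed by name through every deposited table. All 6 were found in each, among 21001 genes in bulk RNA, 22392 in single mouse embryonic stem cells (mESCs), 18873 in single neural precursor cells (NPCs) and 23167 ChIP-seq windows. The mESC groups were a Dgcr8 -/- line made in the v6.5 background and grown in serum+LIF, the v6.5 line grown in 2i+LIF, and the v6.5 line grown in serum+LIF. In what follows they are called knockout, 2i (medium with inhibitors of the kinases MEK and GSK3) and serum. LIF was present in all 3, and the labels name serum only for the knockout and serum cultures. Bulk RNA came from 2 knockout, 1 2i and 2 serum libraries. Single cells came from 1 knockout plate (84 cells), 1 2i plate (94 cells), 2 serum plates (90 and 93 cells) and 1 plate of 54 nestin-positive NPCs derived in culture from v6.5 cells. ChIP-seq gave 1 library per mESC group for RNA polymerase II, 5 histone marks and input. The labels describe a single Dgcr8 knockout line, so effects of the genotype and of that line cannot be told apart.

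MicroRNAs guide a silencing complex to messenger RNAs that pair with their seed, the bases 2 to 8 of the mature strand, and the paired messenger is translated less and degraded faster. Dgcr8 binds the hairpins from which most microRNAs are cut, so cells without it lack most mature microRNAs. The miR-290 cluster is the most abundant microRNA locus of mouse ES cells, and it is known for keeping inhibitors of the step from G1 to S phase low in these fast-dividing cells. Cdkn1a, Rbl2 and Lats2 act on that step, Casp2 and Ei24 in cell death and stress, and Rhoc on the actin cytoskeleton.

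The mature strands below are shown because their seeds define the family reported to target the genes followed here. Loss of this family alone was not tested, because cells without Dgcr8 lack most mature microRNAs. Mature microRNAs were not measured, and matches to these seeds in the messenger RNAs were not searched. Sequences are from RefSeq (GRCm38.p6), written 5′ to 3′ with the seed in capitals. The miR-290 cluster lies on chromosome 7 and the miR-302 cluster, which carries the same seed, on chromosome 3.
miR-291a-3p: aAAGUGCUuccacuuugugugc
miR-294-3p: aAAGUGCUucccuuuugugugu
miR-295-3p: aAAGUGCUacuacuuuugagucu
miR-302b-3p: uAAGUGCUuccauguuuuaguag
miR-302d-3p: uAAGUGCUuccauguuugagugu
miR-290a-3p: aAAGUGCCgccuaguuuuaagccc
miR-291b-3p: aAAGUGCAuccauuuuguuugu
miR-302c-3p: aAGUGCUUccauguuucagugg
The first 5 share the seed AAGUGCU across both chromosomes. The seeds of miR-290a-3p (AAGUGCC) and miR-291b-3p (AAGUGCA) differ from it in their last letter, and that of miR-302c-3p as annotated (AGUGCUU) is shifted by 1 base.

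The Dgcr8 transcript had 4.03 and 2.2 TPM in the bulk knockout libraries, 4.66 TPM in 2i and 10.6 and 10.3 TPM in serum, with plate means of 16.02 TPM in the knockout, 33.95 TPM in 2i and 72.5 and 26.99 TPM in serum. In bulk it fell by 1.51 on the log2 scale against serum (SE 0.28, limma adjusted p = 3.58e-04), but 2i was also called lower than serum (-1.02, adjusted p = 0.0379), and the knockout did not pass against 2i (adjusted p = 0.221) or, on the plates, against serum (adjusted p = 0.243). It was lower in the knockout than in every serum sample but not absent, and the labels do not say which part of the gene is deleted. RNA-seq depth cannot be read from TPM. The genes at TPM 1 or more numbered 11057 and 10820 in the knockout libraries, 8991 in 2i and 8367 and 7562 in serum, and the median per cell was 9317, 9974, and 7780 and 7648 on the knockout, 2i and serum plates. All 6 mESC markers checked, Pou5f1 among them, averaged at least 1 TPM in every mESC sample, and the summed level of the 6 fibroblast or feeder markers was 1.97 TPM on the knockout plate, 0.667 TPM on the 2i plate and 0 on both serum plates. The summed level of the NPC markers, which share Sox2 with the mESC list, did move with the groups: it was 156.7 TPM on the knockout plate (3 of 6 at 1 TPM or more), 91.7 TPM on the 2i plate (3 of 6), and 14.3 and 16.4 TPM on the serum plates (2 of 6), with Fabp7 at 0 on all 4. In bulk it was 93.3 and 86.7 TPM in the knockout, 20.6 TPM in 2i, and 4.38 and 4.07 TPM in serum. The part of this in the results was not tested. The NPC plate carried all 5 NPC markers in its table at 1 TPM or more, beside 4 of 6 fibroblast markers with a summed level of 131.1 TPM.

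RNA of the 6 genes was compared between knockout and serum in bulk to ask how far each moves when microRNA processing is lost. Cdkn1a, Ei24, Casp2 and Rhoc rose in the knockout, with Cdkn1a and Ei24 far ahead of the others. Rbl2 passed the filter on low values only through the knockout, so its difference is given as a description, and Lats2 was too low to test. A gene was tested where its mean over the 5 libraries reached 1 TPM, and called where the adjusted p of limma on log2(TPM + 1) was under 0.05. As deposited, 62.5% of the 10081 genes tested were called higher in the knockout, and the median gene stood 0.92 higher on the log2 scale. At the same time 11.7% of genes were called lower. The count of 4 is therefore read beside those shares. Relative to the median gene, 28.5% of genes were called higher and 30.0% lower, and the 4 genes were again called higher. In bulk samples, a change in the share of cells and a change in RNA per cell cannot be told apart.

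The 3 genes that hold cells before S phase differed widely in size. Cdkn1a encodes p21, an inhibitor of the cyclin-dependent kinases of G1 and S phase. Its level was 57.5 and 56.5 TPM in the knockout, 10.5 TPM in 2i, and 1.32 and 1.38 TPM in serum. Both knockout libraries stood above 2i, and 2i above both serum libraries. The log2 difference of knockout and serum was 4.63 (SE 0.22, 2 libraries against 2, limma adjusted p = 9.69e-09), and centring on the median gene left 3.71. Of the tested genes, 99.7% had a smaller difference. Rbl2 encodes p130, a pocket protein that holds E2F factors in check. It was at 2.53 and 3.69 TPM in the knockout, 0.161 TPM in 2i, and 0.0449 and 0.071 TPM in serum. The knockout libraries lay apart from the other 3, which were all near 0. Its log2 difference was 1.94, with 1.03 left after centring. Lats2, a kinase of the Hippo pathway that restrains Yap1 and has also been linked to the G1 to S step, was listed at 0.383 and 0.635 TPM in the knockout, 0.210 TPM in 2i, and 0.234 and 0 TPM in serum. The knockout libraries were above the other 3, but every library was under 1 TPM. Tested without the filter, the difference was 0.44 (SE 0.16, adjusted p = 0.105).

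The cell death genes Casp2 and Ei24 rose as well. Casp2, an initiator caspase, was at 15.2 and 16.4 TPM in the knockout, 1.79 TPM in 2i, and 2.09 and 2.25 TPM in serum, so 2i lay just under both serum libraries and the knockout far above them. Its log2 difference was 2.41 (SE 0.25, adjusted p = 4.00e-06), with 1.49 left after centring. Ei24, a protein of the endoplasmic reticulum first found as a gene induced by p53, was at 34.4 and 33.5 TPM in the knockout, 3.30 TPM in 2i, and 3.35 and 2.32 TPM in serum. Here the 2i library lay within the serum pair. The difference was 3.2 (SE 0.24, adjusted p = 3.40e-07), with 2.28 left after centring.

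Rhoc, a small GTPase that acts on actin and cell movement, had another order. It was at 24.5 and 24.3 TPM in the knockout, 1.02 TPM in 2i, and 7.21 and 5.31 TPM in serum. Serum stood between the other groups, and 2i was the lowest library. The knockout and serum libraries differed by 1.82 (SE 0.24, adjusted p = 3.23e-05), the smallest difference of the 4, with 0.90 left after centring.

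**Figure D1:**
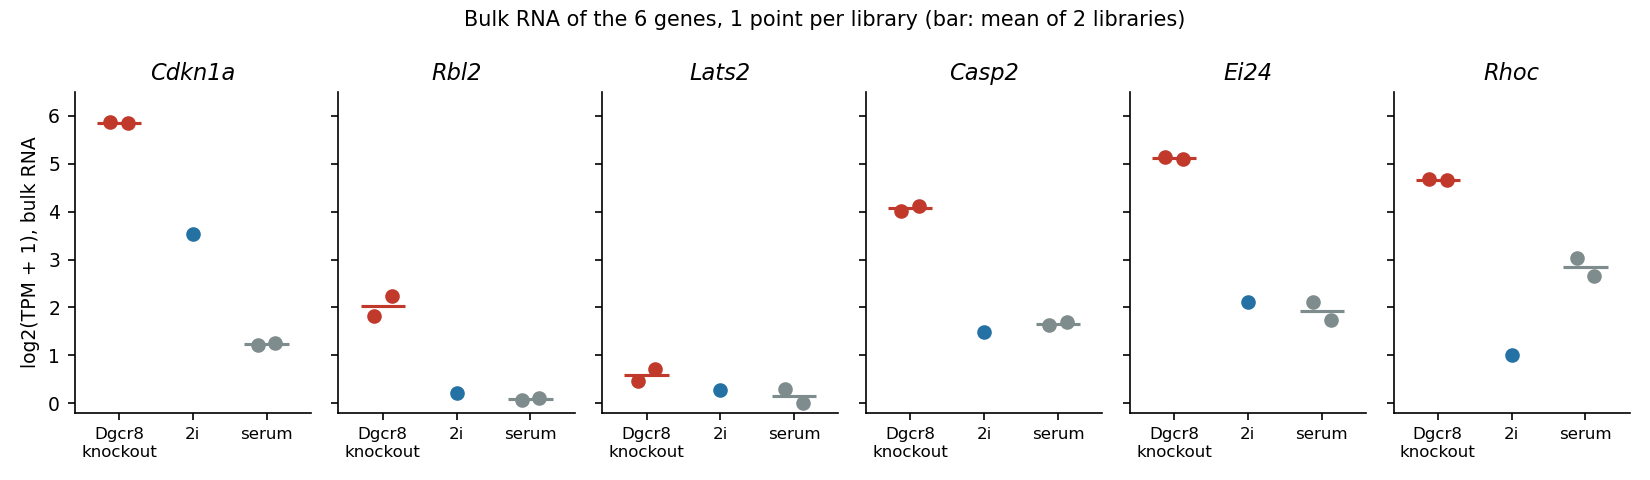
Bulk RNA of each gene as log2(TPM + 1), with the knockout left of 2i and serum; each point is 1 library and each bar the mean of 2. The knockout points stand highest in all 6 panels, and Rhoc has its 2i library (1.02 TPM) below both serum libraries.

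Within the knockout the level order was Cdkn1a, Ei24, Rhoc, Casp2, Rbl2 and Lats2, with means of 57 ± 0.707, 33.95 ± 0.636, 24.4 ± 0.141, 15.8 ± 0.849, 3.11 ± 0.820 and 0.509 ± 0.178 TPM (SD, n = 2 each). No neighbours in this order overlapped. In serum the order was Rhoc (6.26 ± 1.34 TPM), Ei24 (2.84 ± 0.728), Casp2 (2.17 ± 0.113), Cdkn1a (1.35 ± 0.0424), Lats2 (0.117 ± 0.165) and Rbl2 (0.0580 ± 0.0185), each the mean ± SD of 2 libraries. Ei24 and Casp2 differed there by less than the spread of Ei24, and Lats2 and Rbl2 by less than the spread of Lats2. Cdkn1a was thus the highest of the 6 in the knockout and the fourth in serum.

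Culture in 2i was compared with serum to ask which of these genes differ between the culture media in cells that keep Dgcr8. Cdkn1a rose and Rhoc fell, and Casp2 and Ei24 did not pass the test, while 20.4% of the genes tested were called higher and 11.8% lower in 2i. The fit takes the spread of the single 2i library from the pairs of the other groups. On the log2 scale Cdkn1a differed by 2.29 (SE 0.27, 1 library against 2, limma adjusted p = 5.40e-05) and Rhoc fell by 1.83 (SE 0.30, adjusted p = 5.96e-04). The median gene stood 0.20 higher in 2i, and both calls held relative to it. The differences of Ei24 (0.18) and Casp2 (-0.18) were each smaller than their SE of 0.30, and that of Rbl2 was 0.13. The comparisons of knockout and 2i with serum share the serum libraries.

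The direct comparison of knockout with 2i gave calls for the same 4 genes. Rhoc differed most (3.65, SE 0.30), followed by Ei24 (3.02), Casp2 (2.59) and Cdkn1a (2.33), with limma adjusted p at or below 2.37e-05, while 49.1% of all genes tested were called higher in the knockout and 11.9% lower. The median gene stood 0.72 higher. Centred on it, 24.3% of genes were called higher and 26% lower, and the 4 were still called higher, with differences between 1.62 for Cdkn1a and 2.93 for Rhoc. The difference of Rbl2 was 1.81 as deposited and 1.09 after centring. In bulk, Cdkn1a was thus higher in the knockout than in 2i, and higher in 2i than in serum.

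The plates gave single-cell values for the same contrasts, with the mean TPM over the cells of a plate as 1 value. The titles of the bulk serum libraries carry the plate numbers 1 and 2, so bulk and plate values may come from the same cultures. Cdkn1a averaged 112.9 TPM on the knockout plate, 61.1 TPM on the 2i plate, and 3.91 and 3.17 TPM on the serum plates. Ei24 averaged 40.8 TPM, 12.8 TPM, and 1.69 and 0.962 TPM on the knockout, 2i and serum plates. Casp2 averaged 21.6 TPM, 6.96 TPM, and 1.55 and 2.01 TPM in that order. All 3 genes had the knockout highest and 2i between it and both serum plates, so the 2i values of Casp2 and Ei24 lay above serum on the plates and not in bulk. Rhoc averaged 32.4 TPM on the knockout plate, 9.18 TPM on the 2i plate, and 9.69 and 8.66 TPM on the serum plates, with 2i inside the serum pair. Lats2 averaged 2.51 TPM, 1.5 TPM, and 0.392 and 0.247 TPM on the knockout, 2i and serum plates. Rbl2 averaged 7.18 TPM on the knockout plate and 1.42 TPM on the 2i plate, and was listed at 0 in every serum cell.

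In the plate means, Cdkn1a, Ei24, Casp2 and Rhoc were called higher in the knockout as deposited, where 50% of the 12397 genes tested were called higher, 2.97% lower, and the median gene stood 1.38 higher. The differences from serum were 4.65 for Cdkn1a (SE 0.25, 1 plate against 2, limma adjusted p = 0.0144), 4.18 for Ei24 (SE 0.37, adjusted p = 0.0246), 3.03 for Casp2 (SE 0.28) and 1.72 for Rhoc (SE 0.25). Lats2 reached the filter only through the knockout plate, and its difference of 1.41 is a description, as are the plate values of Rbl2. The sizes for Cdkn1a and Rhoc lay within 1 SE of those in bulk. Relative to the median gene 22.2% of genes were called higher and 23% lower, and the calls of Cdkn1a (3.27), Ei24 (2.80) and Casp2 (1.65) held. That of Rhoc ended (0.33, adjusted p = 0.293), and the difference of Lats2 was 0.03. In 2i, Cdkn1a (3.78, adjusted p = 0.0233) and Ei24 (2.59, adjusted p = 0.0437) were called higher as deposited, where 39% of genes were called higher, 1.82% lower, and the median gene stood 1.24 higher. Casp2 (1.52, limma adjusted p = 0.0535) and Rhoc (0.00, adjusted p = 0.997) did not pass. Relative to the median gene, Cdkn1a (2.53) and Ei24 (1.35) were called higher, Rhoc was called lower (-1.24, adjusted p = 0.00585), and Casp2 (0.28) did not pass, beside 15.5% of genes higher and 18.7% lower. The knockout and 2i plates are 1 against 1, with the spread taken from the serum plates, and as deposited Cdkn1a, Ei24, Casp2 and Rhoc did not pass, where 5.19% of genes were called higher and 1.69% lower. Centred on the median gene, Rhoc, Ei24 and Casp2 were called higher in the knockout (1.58, 1.46 and 1.37), beside 10.6% of genes higher and 7.15% lower. Cdkn1a differed there by 0.88 as deposited (adjusted p = 0.280) and 0.74 after centring (adjusted p = 0.116), so its bulk difference between knockout and 2i was not called on the plates.

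The zeros of Rbl2 in serum need care. No gene in the mESC table was above 0 in fewer than 10 of the 183 serum cells, 5 of the 84 knockout cells or 5 of the 94 2i cells, unless it was at 0 in all of them. A gene seen in up to 9 serum cells, or 4.92%, would therefore be listed like Rbl2, so no difference or call of Rbl2 against the serum plates is given. Of the 6283 genes detected in at least as large a share of knockout cells as Rbl2, 27 were listed at 0 in all serum cells, Rbl2 among them. The bulk serum libraries, where Rbl2 was above 0 and under 0.1 TPM in both, show a low level by a separate measurement.

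The share of cells with a gene at TPM 1 or more was counted on each plate, with a 95% Wilson interval that covers counting error over cells only. Cdkn1a was detected in all 84 knockout cells and all 94 2i cells, and in 47.8% (interval 37.8 to 57.98%) and 51.6% (41.6 to 61.5%) of cells on the serum plates. Ei24 was detected in 98.8% of knockout cells, 96.8% of 2i cells, and 43.3% and 27.96% of serum cells. Casp2 was detected in 80.95% of knockout cells, 86.2% of 2i cells, and 31.1% and 35.5% of serum cells. For these 3 genes the knockout and 2i intervals overlapped, and both lay above those of the serum plates. The share of all genes with intervals in this order was not counted, so the order is not read as particular to these genes. The lowest knockout cell had 14.6 TPM of Cdkn1a, and 9 of 183 serum cells stood above it. The highest serum cell had 70.5 TPM, and 59 of 84 knockout cells and 26 of 94 2i cells exceeded it.

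Rbl2 was detected in 77.4% of knockout cells (interval 67.4 to 85.01%) and in 30.9% of 2i cells (22.4 to 40.8%), and was listed at 0 in serum. With 1 plate a group these intervals do not cover the spread between plates. Lats2 was detected in 35.7% of knockout cells, 36.2% of 2i cells, and 10.0% and 4.30% of serum cells, with overlapping intervals for knockout and 2i and lower shares in serum. For Rhoc detection was 83.3% in the knockout, 63.8% in 2i, and 86.7% and 84.9% in serum. It was the only gene of the 6 with no larger share in the knockout than on both serum plates, and 2i was the lowest mESC plate (interval 53.8 to 72.8%, against 73.9 to 89.8% in the knockout). Genes detected per cell were also more numerous on the knockout and 2i plates than on serum plates, and the part of this in the shares was not tested.

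**Figure D2:**
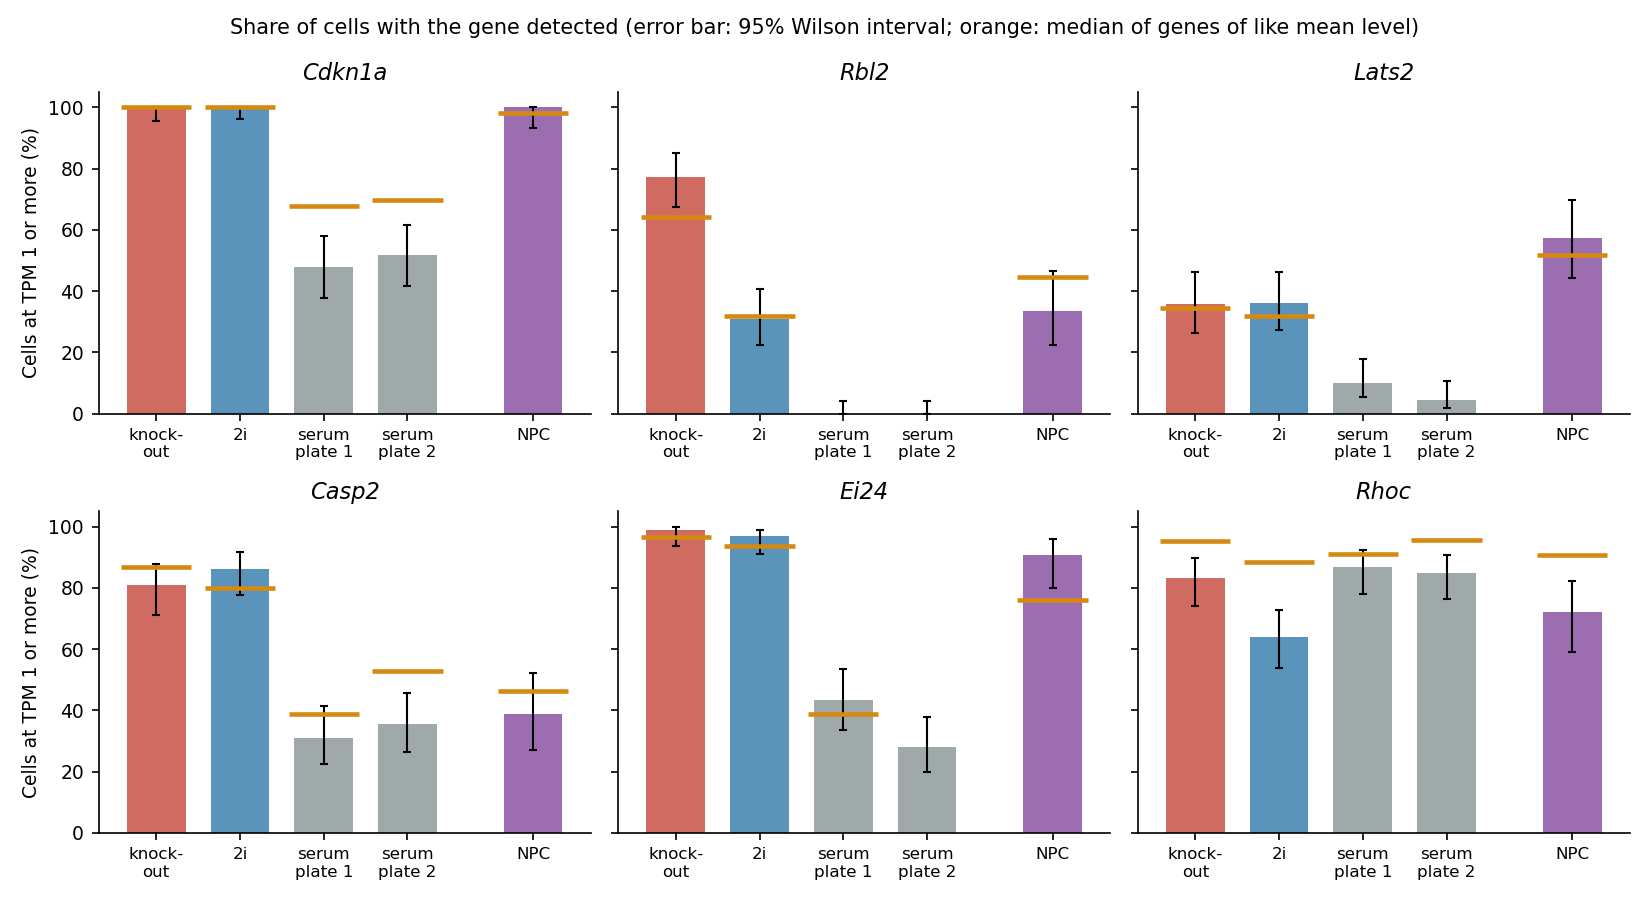
Share of cells at TPM 1 or more per plate, in percent, with 95% Wilson intervals; the orange line is the running median share of genes of like mean level, drawn where the plate mean reached 1 TPM. Knockout and 2i intervals overlap for Cdkn1a, Casp2, Ei24 and Lats2 and not for Rbl2 (77.4% and 30.9%) or Rhoc (83.3% and 63.8%), and Rhoc lies under the orange line on every plate.

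Taking the cell as the unit, 53 of 84 knockout cells had 5 or all 6 of the genes detected, against 33 of 94 2i cells and none of the 183 serum cells. These counts include Rbl2, listed at 0 in every serum cell, so no serum cell could have all 6. No such count was made for other genes of like level. The median cell had 5 of them in the knockout, 4 in 2i and 2 on both serum plates. Within a plate the genes hardly moved together. Spearman's correlation over the pairs lay between -0.25 and 0.26 across the 84 knockout cells, with a median of 0.00, and between -0.19 and 0.22 across the 94 2i cells. Cells of a plate share their chip and library preparation, and the values are given as descriptions.

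Spread between cells was measured as the SD of log2(TPM + 1) over the cells of a plate and set against genes of like mean level, by a running median along the mean. Rhoc was more variable than such genes on every plate, by 0.49 in the knockout, 0.56 in 2i, 0.23 and 0.40 on the serum plates, and 0.63 among NPCs. Its SD was 2.08 on the knockout plate, where genes of like level had 1.6. It was detected there in 83.3% of cells against 95.2% for genes of like level, and in 2i in 63.8% against 88.3%. Every knockout and 2i cell with Rhoc above 0 was at TPM 1 or more, and the medians over all cells were 26.5 TPM in the knockout and 4.37 TPM in 2i. Over detected cells alone the knockout value was -0.21. Ei24 had less spread than genes of like level in the knockout (-0.36) and in 2i (-0.21), and Rbl2 had less in the knockout (-0.22). Cdkn1a had less in the knockout (-0.15), but more in 2i (0.13) and on the serum plates (0.19 and 0.16). The middle 90% of genes on the knockout plate lay between -0.61 and 0.64, so none of the 6 stood outside that range there. Among NPCs that range was -0.67 to 0.44, and Rhoc lay above it.

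**Figure D3:**
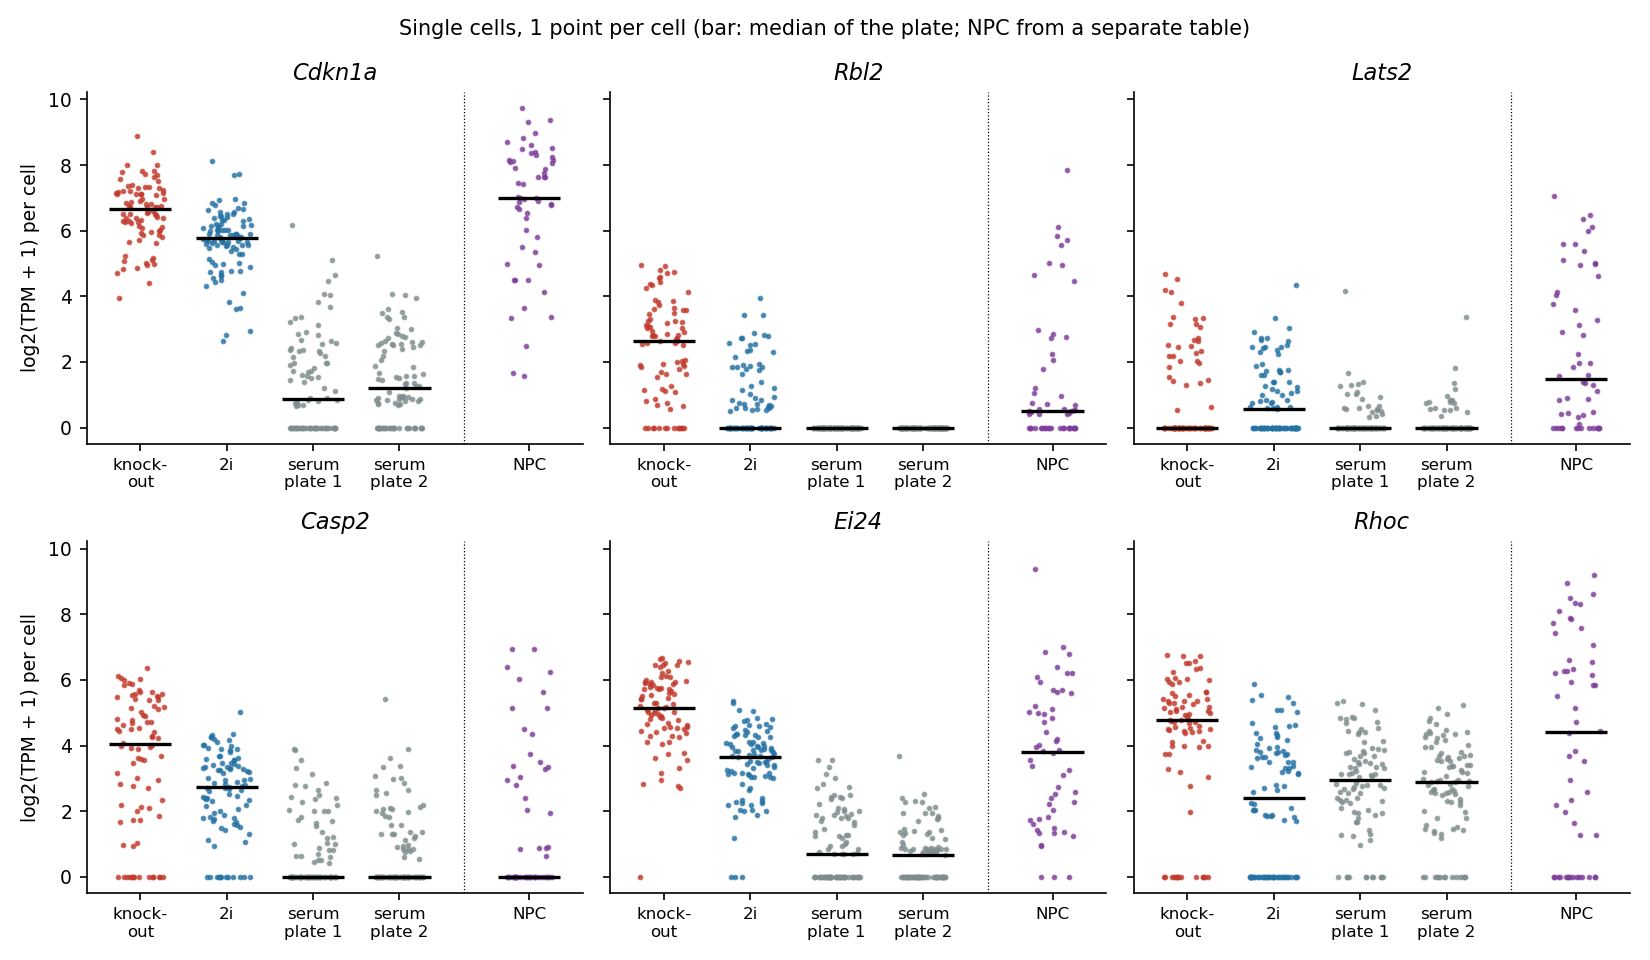
Level of each gene in each cell as log2(TPM + 1), with plates from left to right knockout, 2i, serum plates 1 and 2 and, past the dotted line, NPCs from a separate table; bars are medians. All knockout cells carry Cdkn1a (lowest 14.6 TPM), Rbl2 is at 0 in all serum cells, and Rhoc has a group of cells at 0 on every plate.

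NPCs lie in a table of their own, so their levels are given beside the mESC plates without a test. Cdkn1a averaged 197.2 TPM (median 127.9, range over cells 1.96 to 854.6) and was detected in all 54 cells. Rhoc averaged 90.3 TPM and was detected in 72.2% of cells, Ei24 averaged 36.8 TPM in 90.7%, and Lats2 15.3 TPM in 57.4%. Casp2 averaged 13.2 TPM in 38.9% and Rbl2 11.2 TPM in 33.3%. Cdkn1a had the highest mean of the 6 in NPCs, as on the knockout and 2i plates. NPC cells had the fewest genes detected at the median (7368), and for Casp2 and Rbl2 the medians were 0 and 0.422 TPM.

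RNA polymerase II in the window of each gene was set beside the RNA change to ask whether the polymerase moved with the transcript. The deposited windows span 1000 bases. The distance between neighbouring windows on the same strand matched that between annotated starts within 10 bases for 40.9% of 5791 pairs, with a median offset of 0, so windows are read as lying at or near a start, which may be off for a single gene. With 1 library a group there is no replicate check, and the intervals are exact 95% counting intervals only. Summed window counts were 1632114 in the knockout, 902007 in 2i and 1521860 in serum, and values are given as CPM, counts scaled to equal window sums. The raw counts behind them lay between 19 and 94 in serum. Input window sums were 480437 in the knockout and 457710 in serum. Input counts were 41 and 32 at Rbl2 and 21 and 22 at Lats2, in that order. Scaled to window sums, polymerase lay below input at Rbl2 and Lats2 in both groups. At Cdkn1a, Ei24 and Rhoc it lay below input in serum and above it in the knockout. How much of these polymerase counts is background was not tested. In mm9 the windows were chr17:29227431-29228430 for Cdkn1a, chr8:93593493-93594492 for Rbl2, chr14:58364461-58365460 for Lats2, chr6:42214538-42215537 for Casp2, chr9:36604479-36605478 for Ei24 and chr3:104591452-104592451 for Rhoc. Ei24 and Lats2 were the 2 of 6 past 2-fold higher in the knockout, where 10.2% of the 21319 windows with 20 counts or more over both libraries were, and 4.02% were past 2-fold lower. Among genes tested in bulk RNA, 4.97% were past 2-fold higher.

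The Cdkn1a window had 42.3 CPM in the knockout, 35.5 CPM in 2i and 30.9 CPM in serum. The log2 ratio of knockout and serum was 0.45 (interval -0.10 to 1.02), which includes 0 and lies far below the RNA difference of 4.63. Divided by the input counts of the same window (15 in the knockout and 26 in serum) the ratio was 1.29, past 2-fold and still below the RNA difference. The window covers only the upstream of 2 annotated Cdkn1a starts. Rbl2 had 25.7, 41.02 and 30.2 CPM in the knockout, 2i and serum, a log2 ratio of knockout and serum of -0.23 (-0.87 to 0.40), beside an RNA difference of 1.94. Casp2 had 71.1, 37.7 and 61.8 CPM in that order, a ratio of 0.20 (-0.20 to 0.61), beside 2.41. For these 3 genes, and for Ei24 below, the upper end of the counting interval lay below the RNA difference as deposited and after centring. Centred, the RNA differences of these 3 were 3.71, 1.03 and 1.49. For Rhoc that end lay below the RNA difference as deposited and not after centring.

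For the other 3 genes the polymerase counts were higher in the knockout beyond counting error. Ei24 had 103.5 CPM in the knockout, 34.4 CPM in 2i and 45.996 CPM in serum. Its ratio of knockout and serum was 1.17 (0.76 to 1.59), beside an RNA difference of 3.2 and 2.28 after centring. Rhoc had 80.9, 50.997 and 51.3 CPM in the knockout, 2i and serum, a ratio of 0.66 (0.24 to 1.08), beside 1.82 in RNA and 0.90 after centring. Lats2 had 39.2, 45.5 and 12.5 CPM in that order, a ratio of 1.65 (0.89 to 2.47). It too has 2 annotated starts, 11705 bases apart, and by 3 of its 5 neighbouring genes its window lies on the upstream one. Lats2 had the largest polymerase ratio of the 6 and the lowest RNA level of the 6 in the knockout. That ratio came from knockout and serum counts that were both below input when scaled to window sums.

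The gap between RNA and polymerase differences was 4.18 for Cdkn1a, and 0.429% of the 8628 genes with both values had a larger one. It was 2.2 for Casp2, 2.17 for Rbl2, 2.04 for Ei24 and 1.16 for Rhoc, and 11.4%, 11.98%, 14.8% and 40.6% of genes had a larger one. Rbl2 is among these genes only because the knockout lifted it over the filter, so its gap and share are descriptions. Over those 8628 genes the median difference was 0.94 in RNA and -0.05 in the polymerase. Of the 5486 called higher in RNA, 6.22% were past 2-fold higher in the polymerase, with a median ratio of 0.00. An RNA difference larger than the polymerase ratio was thus usual among genes that rose, and of these 5 genes Cdkn1a had the gap farthest from the median. For Cdkn1a the polymerase was counted at the upstream start only, and its ratio was 1.29 when divided by input. Which step of RNA production or decay differed was not tested.

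**Figure D4:**
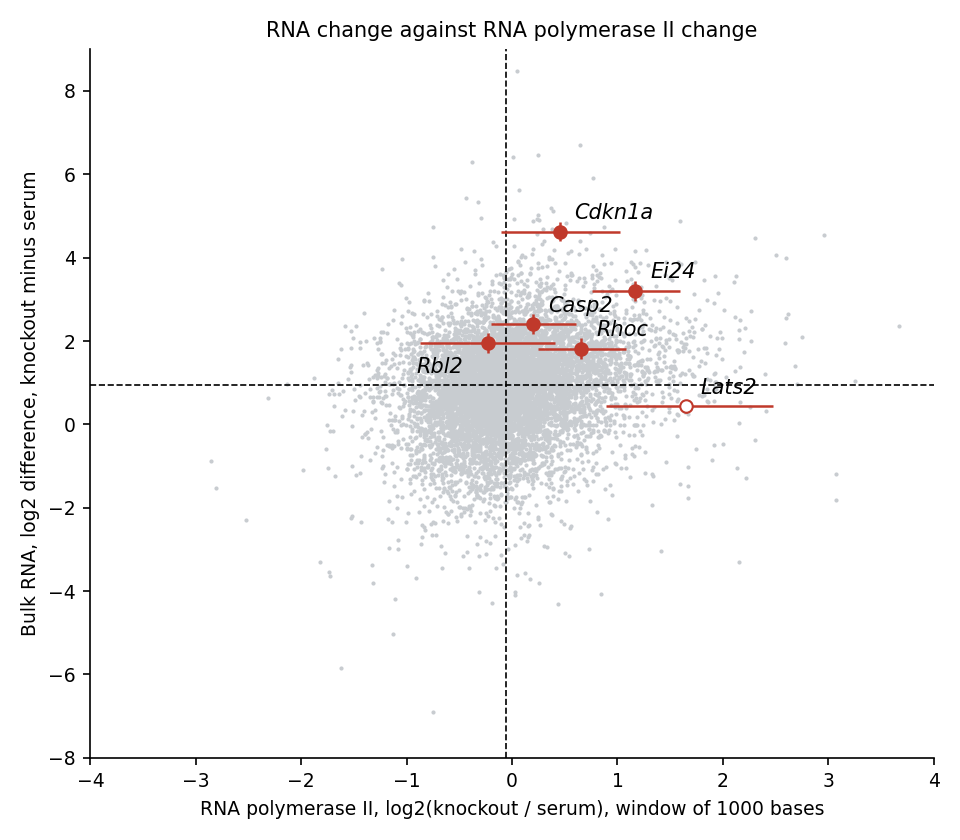
Bulk RNA difference (y, log2, bars are SE) against the RNA polymerase II log2 ratio of the window (x, bars are 95% counting intervals), both knockout over serum; grey points are the other genes and dashed lines their medians. Cdkn1a sits at 4.63 in RNA and 0.45 in polymerase; the open symbol is Lats2, whose RNA was too low for the main test.

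Polymerase counts in 2i were set beside RNA in the same way. Cdkn1a, whose RNA rose, had a ratio of 2i and serum of 0.20 (-0.50 to 0.88), and Rhoc, whose bulk RNA fell, had -0.01 (-0.57 to 0.54). Lats2 had a ratio of 1.86 (1.05 to 2.73), the only one past 2-fold higher, beside 12.3% of windows. Casp2 had -0.71 (-1.32 to -0.13), and 6.67% of windows were past 2-fold lower. At the miR-290 cluster, the window of Mir290 had 529.99 CPM in the knockout, 352.5 CPM in 2i and 607.2 CPM in serum, with log2 ratios to serum of -0.20 (-0.33 to -0.06) in the knockout and -0.78 (-0.97 to -0.60) in 2i. The window of the cluster thus kept far more polymerase reads than that of any of the 6 genes in all 3 groups.

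Histone marks in the same windows were compared as CPM of each library. H3K4me3, a mark of active starts, had 43.6 to 126.8 CPM in the knockout, 21.9 to 137.5 CPM in 2i and 58.9 to 119.1 CPM in serum at the other 5 genes. At Cdkn1a it had only 17.8 CPM in the knockout, 9.39 CPM in 2i and 3.79 CPM in serum. The log2 ratio of knockout and serum at Cdkn1a was 2.23 (1.75 to 2.72) and that of 2i and serum 1.31 (0.82 to 1.81). In the 690 windows with 40 to 80 serum counts, like that of Cdkn1a, the median knockout ratio was 0.76 and 35.9% were past 2-fold higher, while the median 2i ratio was -0.39 and 7.54% were past 2-fold higher. The other 5 genes had knockout ratios between -0.43 and 0.39, against a median of 0.15 over all windows.

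Rhoc had ratios beyond counting error in 3 marks. Its H3K4me3 level was 43.6 CPM in the knockout, 21.9 CPM in 2i and 58.9 CPM in serum, with log2 ratios to serum of -0.43 (-0.64 to -0.23) in the knockout and -1.43 (-1.65 to -1.21) in 2i. H3K27ac, a mark of active starts and enhancers, had 29.5, 27.9 and 66.1 CPM in that order, with ratios of -1.17 (-1.49 to -0.85) and -1.24 (-1.55 to -0.95). H3K27me3, the Polycomb mark, had 36.4, 54.2 and 13.5 CPM, with ratios of 1.43 (0.31 to 2.63) and 2.01 (0.96 to 3.16). Such ratios are common: 12.6% of windows in the knockout and 13.7% in 2i were past 2-fold lower in H3K27ac, and 13.7% and 15.6% were past 2-fold higher in H3K27me3. In 2i the H3K4me3, H3K27ac and bulk RNA of Rhoc were thus lower than in serum. Its polymerase ratio was -0.01 there, and its 2i plate mean as deposited lay inside the serum pair. In the knockout H3K27ac was lower and RNA higher. At Cdkn1a, H3K27me3 had 15.6 CPM in the knockout, 32.9 CPM in 2i and 42.9 CPM in serum. The ratios to serum were -1.46 (-2.70 to -0.38) in the knockout and -0.38 (-1.31 to 0.49) in 2i. Input counts in this window also differed, with 15 in the knockout, 13 in 2i and 26 in serum. Scaled to window sums, H3K27me3 at Cdkn1a lay below input in the knockout and serum and above it in 2i. How much of these H3K27me3 counts is background was not tested, so the knockout ratio is not read as loss of the mark. H3K36me3, which marks transcribed bodies, had 81.1, 60.5 and 25.9 CPM at Rbl2 in the knockout, 2i and serum, a knockout ratio of 1.65 (0.64 to 2.73). At Ei24 it had 120.1, 73.3 and 35.8 CPM, a knockout ratio of 1.75 (0.91 to 2.64). Both genes had serum lowest, and each count behind these H3K27me3 and H3K36me3 values was 40 or less. Rbl2, like Rhoc, had knockout ratios beyond counting error in 3 marks, with 0.39 (0.26 to 0.53) in H3K4me3 and 0.41 (0.05 to 0.78) in H3K27ac.

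**Figure D5:**
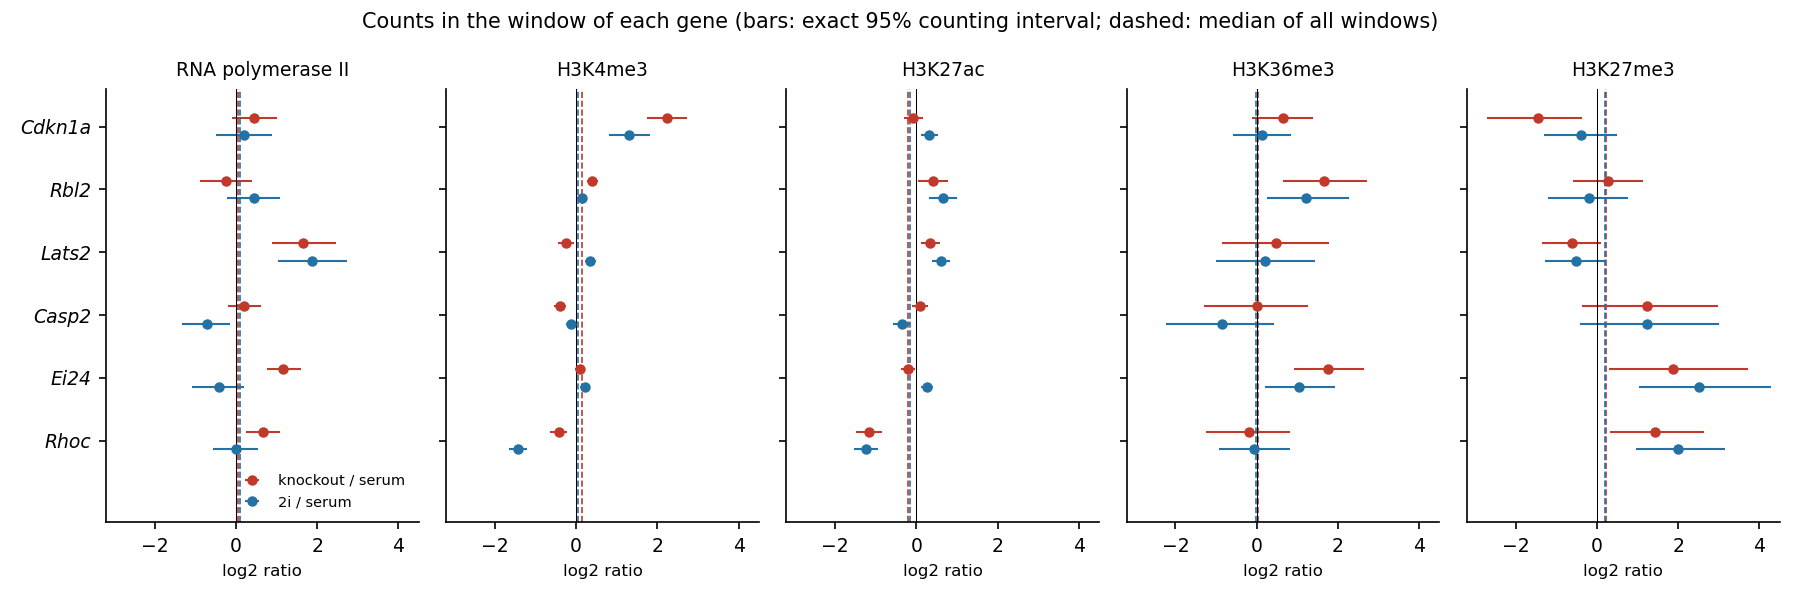
Log2 ratios of window counts, knockout over serum (red) above 2i over serum (blue), for 5 ChIP targets; bars are exact 95% counting intervals and dashed lines the medians of all windows. Polymerase is past 2-fold at Lats2 and Ei24 in the knockout, and Rhoc has lower H3K27ac in both comparisons (-1.17 and -1.24).

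The 2 annotated starts of Cdkn1a are 2790 bases apart, and its window lies on the upstream one. Of its 14 neighbouring genes, 9 have window distances within 50 bases of those from the upstream start, and none from the downstream start. Polymerase and marks at the downstream start are therefore outside the window, and their part in the low H3K4me3 counts was not tested. The 250 bases before each start are shown because the starts differ in their letters (RefSeq, GRCm38.p6, plus strand). Capitals mark matches to TATAA, to GGGCGG and to a pair of adjacent p53 response-element decamers with at most 1 mismatch, each searched on both strands. The mismatch was allowed after an exact search found no match at Cdkn1a.
Cdkn1a upstream start, chr17:29090729-29090978: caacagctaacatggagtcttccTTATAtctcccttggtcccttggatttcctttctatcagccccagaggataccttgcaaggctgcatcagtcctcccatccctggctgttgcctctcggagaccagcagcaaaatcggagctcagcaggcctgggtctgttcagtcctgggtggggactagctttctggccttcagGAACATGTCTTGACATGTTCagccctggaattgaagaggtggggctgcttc
Cdkn1a downstream start, chr17:29093519-29093768: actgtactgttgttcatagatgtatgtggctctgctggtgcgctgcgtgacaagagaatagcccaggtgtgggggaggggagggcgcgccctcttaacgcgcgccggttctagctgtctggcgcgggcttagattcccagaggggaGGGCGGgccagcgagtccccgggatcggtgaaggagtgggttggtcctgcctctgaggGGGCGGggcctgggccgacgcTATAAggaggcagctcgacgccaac
The upstream sequence holds 2 CpG dinucleotides and a match to the p53 decamer pair 51 bases before the start, a match found in 0.0761% of the 32851 RefSeq promoter windows of 250 bases. The downstream sequence holds 19 CpG dinucleotides, 2 matches to GGGCGG (in 32.7% of promoters) and TATAA 25 bases before the start (TATAA anywhere in 22.8%). No other promoter of the 6 genes matched the decamer pair. A match is a description of the letters, not a site in use.

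Genes of the same pathways were counted in the bulk comparison of knockout with serum, where 62.5% of all genes were called higher. Of 13 tested genes among other reported targets of the miR-290 and miR-302 seed family, 10 rose, 1 fell and 2 did not pass, with a median difference of 1.52 against 0.92 for all genes, and relative to the median gene 7 were higher, 1 lower and 5 not called. Lefty1, an inhibitor of Nodal signalling, was at 120.9 and 179.6 TPM in the knockout, 2.38 TPM in 2i, and 0.420 and 0.443 TPM in serum. Its difference was 6.70 (SE 0.25, limma adjusted p = 1.57e-09), above that of Cdkn1a, with a polymerase ratio of 0.64. Lefty2 was at 16.8 and 18.4 TPM in the knockout, 0.662 TPM in 2i, and 0.133 and 0.353 TPM in serum. It passed the filter on low values only through the knockout, so its difference of 3.91 is a description. It is still included in the 10 counted above. The 2 Lefty genes are close in sequence, and how the authors' counting split reads between them is not stated.

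Among regulators of G1 and S phase, 8 of 16 tested rose, 3 fell and 5 did not pass, with a median of 0.61, below that of all genes. Relative to the median gene they were 6 higher and 6 lower. Cyclin D1 (Ccnd1), a driver of G1, was at 14.4 and 15.3 TPM in the knockout, 4.83 TPM in 2i, and 2.40 and 1.46 TPM in serum, a difference of 2.45 (SE 0.26, limma adjusted p = 5.31e-06). Cdkn2d, an inhibitor of Cdk4 and Cdk6, differed by 1.85 (SE 0.29). In bulk, both a driver and an inhibitor of G1 were thus among the genes that rose beside Cdkn1a. On the plates Ccnd1 differed by 1.09 and Cdkn2d by 2.72, where the median gene stood 1.38 higher. Ccnd1 is also in the list of the seed family.

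In the Hippo list, to which Lats2 belongs by function, 5 of 11 rose, 1 fell and 5 did not pass (median 0.56, below that of all genes). Relative to the median gene 3 were higher, 2 lower and 6 not called, with a median of -0.36. Nf2, which activates the Lats kinases, was at 20.9 and 24.7 TPM in the knockout, 1.46 TPM in 2i, and 2.54 and 1.33 TPM in serum, a difference of 3.05 (SE 0.28). Tead2, a DNA-binding partner of Yap1, differed by 2.48 (SE 0.28). Of 17 cell death genes listed around Casp2 and Ei24, 14 rose, 1 fell and 2 did not pass (median 1.05), and relative to the median gene 5 were higher, 3 lower and 9 not called. Pmaip1, which encodes the Bcl-2 antagonist Noxa, differed by 3.09 (SE 0.24) and the effector caspase Casp6 by 2.58 (SE 0.26).

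Among p53 targets other than Cdkn1a, 14 of 19 rose, 1 fell and 4 did not pass (median 1.67), and relative to the median gene 11 were higher, 4 lower and 4 not called. Ccng1, a p53-induced cyclin, differed by 3.49 (SE 0.25), with a polymerase ratio of -0.04. Trp53, the p53 gene, was at 250.04 and 258.04 TPM in the knockout, 155.3 TPM in 2i, and 194.2 and 240.7 TPM in serum, and its difference of 0.23 (SE 0.15, limma adjusted p = 0.166) did not pass, while centred on the median gene it was called lower (-0.69).

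The genes with the pattern most like each member were taken as those with the smallest mean absolute difference in log2(TPM + 1), after centring each gene in each table, over 9 values (5 bulk libraries and 4 mESC plates) and 9927 other genes. For Cdkn1a they were Fxyd6 (0.14) and Sohlh2 (0.21), and for Rbl2 Eef2k (0.12) and Arhgef7 (0.13). For Casp2 they were Ly6e (0.093) and Palm3 (0.12), for Ei24 Pcbd1 (0.15) and Mettl7a1 (0.16), and for Rhoc Dtd1 (0.16) and Liph (0.16). Fxyd6 was at 309.7 and 325.8 TPM in the knockout, 70.8 TPM in 2i, and 11.2 and 13.1 TPM in serum, in the same order as Cdkn1a. Liph was at 53.7 and 54.7 TPM in the knockout, 4.64 TPM in 2i, and 23.1 and 17.5 TPM in serum, with 2i lowest as for Rhoc. Among the 5 members compared in this way, which leave out Lats2, Casp2 and Rbl2 were closest (0.21), and Cdkn1a and Rhoc farthest apart (1.61).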

How the data were processed

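RNA-seq was measured in bulk and in single cells, and ChIP-seq in bulk. The RNA tables the authors deposited hold the natural log of TPM + 1, as the sums after reversing it show, and Bowtie, RSEM and mm9 are named per the submitters' processing notes, with no versions or roles. For ChIP the authors deposited raw counts of reads in 1000-base windows, here also scaled to each library's sum (CPM). The members and gene lists were chosen with earlier results of these data known. Genes were named by a rule: the 6 members, Dgcr8, from each list the 2 called genes with the largest absolute difference in the bulk knockout comparison, and the 2 genes of nearest pattern to each member tested, with Trp53 given beside the p53 list. The result of 1 further list is not reported here.

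Samples were grouped by labelled genotype, culture and plate. Limma 3.58.1 in R 4.3.3 (trend) was fitted to log2(TPM + 1) over the 5 bulk libraries and, apart, over the 4 mESC plate means, keeping genes whose mean reached 1 TPM, with Benjamini-Hochberg adjustment over all genes and calls at 0.05. A fold change of a low gene is understated on this scale. Relative to the median gene means that each library was shifted by its median difference from the serum mean. Plate fits rest on the spread of 1 pair of serum plates. Nothing says that the replicates came from separate cultures, so the p-values speak only of the spread among these libraries or plates, part of which may be technical. Polymerase ratios use windows with at least 20 counts over both libraries. Columns were checked for copies, of which there were 0, and 51 gene names that read as dates in the mESC table were dropped. No cell was left out and no doublet caller was run. The limma fits and the variability measure were tested on simulated data. Alternatives were other pseudocounts, filters and scalings, leaving out each library, the replicate numbers as a block, and other thresholds for detection, variability and polymerase.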

Additional observations from a re-analysis of the deposited data

How the results depend on the processing

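Counts here include Rbl2 in bulk and Rbl2 and Lats2 on the plates, which pass the filter only through the knockout and are not counted as calls in the report. Of the bulk calls of these genes in the 3 comparisons, none changed direction or lost its call under another pseudocount (0.1), no filter, centring on the median gene or quantile normalisation. With a filter at a mean TPM of 5, and without either knockout library, Rbl2 fell under the filter and 4 genes were tested and called in the knockout. Leaving out each library in turn gave 4 to 5 genes called for knockout against serum, 4 to 5 for knockout against 2i, and 2 each time for 2i against serum. The replicate numbers do not pair the libraries (correlation of their deviations across genes -0.03, 2 pairs only). With the numbers as a replicate block, 5 genes were called, as without it. In the plate means, centring on the median gene left 4 of 6 genes called in the knockout, ending the calls of Rhoc and Lats2. It also ended the 2i calls of Rbl2 and Lats2, turned the 2i difference of Lats2 to -0.32 and called Rhoc lower in 2i. A pseudocount of 0.1 ended the 2i call of Ei24 (adjusted p = 0.0517), and the filter at 5 and the mean of log values each called Casp2 in 2i. The causes were not tested. Without serum plate 1 or 2 the plate differences are values with no test. The filter at 5 left 4 genes called in the knockout plate mean and 3 in that of 2i. The filter on cells removed 0 cells.

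Divided by input, the knockout polymerase ratios put 3 of the 6 genes past 2-fold, adding Cdkn1a, whose input counts were 15 in the knockout and 26 in serum. Scaling to the median ratio or requiring 50 counts left 2. With plate means in place of bulk, Cdkn1a, Casp2 and Rhoc were called higher in RNA and not past 2-fold in the polymerase, as in bulk. Rbl2 would make these 4 in both, but it passes the filter only through the knockout and is not counted as a call. The genes detected in a larger share of knockout cells than on both serum plates numbered 5 at TPM 1, 5 at TPM above 0 and 6 at TPM 10 or more. Rhoc had more spread than genes of like level on 5 of 5 plates with a narrower running median or a pseudocount of 10, and on 4 of 5 over detected cells alone. TPM hides depth, and the ChIP counts, 9 to 70 in several windows, leave wide intervals.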
